A study of Mus musculus with 12 samples.

Results

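The nuclear-encoded genes of oxidative phosphorylation were described by respiratory complex in sorted mouse bone marrow progenitors. Members were the rows of the count table named Nduf followed by a, b, c, s or v and a digit, Sdha to Sdhd, and names beginning with Uqcr, Cox4 to Cox8 or Atp5, together with Cyc1. The rule found 87 genes of 33924 in the table, and it left out 1 row with -ps in its name. Of these, 35 belong to complex I, 4 to complex II, 9 to complex III, 20 to complex IV and 15 to complex V. The remaining 4 (Cox4nb, Atp5s, Atp5sl and Atp5l2) are named like subunits but are not counted as subunits here.

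Oxidative phosphorylation takes place in the inner mitochondrial membrane. Complexes I and II pass electrons from NADH and succinate to ubiquinone, complex III passes them to cytochrome c, and complex IV passes them to oxygen. Complexes I, III and IV pump protons, and complex V, the ATP synthase, uses the proton gradient to make ATP. Most subunits are encoded in the nucleus and imported, while a small core of complexes I, III, IV and V is encoded by the mitochondrial genome. Haematopoietic stem cells are known for relying less on this pathway than the progenitors they give rise to.

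Polyadenylated RNA was counted by Lexogen 3′ mRNA-seq, which yields about 1 tag near the end of a transcript, in 12 libraries of live myeloid progenitors, sorted as c-Kit+ cells negative for Sca1 and lineage markers. The 4 groups of 3 libraries were old chronic Mx+ Wt1fl/+ (old het), old chronic Mx+ Wt1+/+ (old control), young acute Mx+ Wt1fl/+ (young het) and young acute Mx+ Wt1+/+ (young control). The design set progenitors with 1 floxed allele of Wt1, a zinc finger transcription factor gene mutated in some acute myeloid leukaemias, against controls of the same age. All groups carried Mx+, which in blood studies usually stands for an interferon-inducible Cre recombinase. The labels give neither its induction nor the excision of the allele, and no ages in months. Chronic goes with every old and acute with every young library, and the labels explain neither word, so age and that condition cannot be told apart. The labels do not say whether libraries of a group came from separate animals, and p-values measure only the spread between these libraries.

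Total counts ranged from 645460 in young control 2 to 9645502 in old control 1, so that 3 counts stood for 5.10 CPM (counts scaled to a common library total, with TMM factors) in the shallowest library and 0.275 CPM in the deepest. Wt1 itself had 1 to 4 counts in old libraries and 4 to 23 in young ones, too few for a check of the labels, and the tags need not lie in the deleted part. Of the markers of the gate, Kit and Cd34 were counted in all 12 libraries, summing to 429 to 932 CPM. Old control 1 stood apart, with 762 counts of Ly6a (Sca1) and 55 of Cd3e, a T cell gene, against at most 5 and 0 in any other library. Young control 3 had a count for 72 of the 87 members, the fewest of any library. In the sample titles it is numbered next to the young hets and apart from young controls 1 and 2. All old libraries are numbered apart from all young ones, with the old controls before the old hets. The labels do not say what this numbering stands for, so that old and young cannot be told apart from it. Granulocyte and monocyte markers (10 of 10 counted in all libraries) summed to 9349 to 15830 CPM in old hets, 6730 to 15500 in old controls, 11260 to 14090 in young hets and 4884 to 11410 in young controls. Erythroid markers (11 of 14 counted in all libraries) summed to 681 to 1453 CPM in old hets, 787 to 2389 in old controls, 1708 to 2615 in young hets and 2107 to 2307 in young controls. In these bulk samples, a difference in the mix of cells cannot be told apart from a difference in RNA per cell, and the part of cell mix in the results below was not tested.

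Of the 87 members, 77 had enough counts to be tested, and 72 were counted in all 12 libraries. Together the members made up 0.921 to 1.57% of the counts of a library. The mean level of a tested member over the 12 libraries spanned 219-fold, from 4.48 to 982 CPM with a median of 80.2 CPM. The levels compare 3′ tags per gene, which need no division by transcript length but depend on how well each 3′ end was captured and assigned. Of the 86 members found in the transcript annotation, 56 shared no 50-base stretch of their last 300 transcript bases with another gene, and 5 shared 50% or more. These 5 were Atp5l (70.1%), Cox7c (65.2%), Atp5h (59.2%), Atp5g2 (55.5%) and Ndufs3 (53.0%), and their counts are uncertain.

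In complex I, the proton-pumping NADH dehydrogenase, tested subunits averaged 7.31 to 809 CPM with a median of 71.0 CPM. The most counted were Ndufa2 at 809 CPM and Ndufs6 at 541 CPM, both accessory subunits of the NADH-oxidising arm, and Ndufa5 at 359 CPM, an accessory subunit next to the quinone-binding part. The catalytic subunits were counted far less. Ndufs1, which holds iron-sulfur clusters of the NADH-oxidising arm, ranged from 30.6 to 96.7 CPM over the libraries, and Ndufv1, which binds the flavin, ranged from 14.7 to 54.9 CPM. Ndufs5, an accessory subunit of the membrane arm, had 12 counts in 4 libraries and was not tested. It shared 47.8% of its 3′ stretches with BC002163, a row that itself had 46 counts, so that the low count does not show low mRNA.

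Complex II, succinate dehydrogenase, is the complex made of nuclear-encoded subunits alone and also an enzyme of the citric acid cycle. Its 4 genes averaged within 2.71-fold of each other. Sdha, the flavoprotein that oxidises succinate, averaged 133 CPM, against 51.9 CPM for Sdhb, the iron-sulfur subunit, and 52.9 and 49.1 CPM for Sdhc and Sdhd, the membrane anchors. In complex III, which carries electrons from ubiquinol to cytochrome c, levels ran from 30.0 to 647 CPM. Uqcrh, the acidic hinge protein, was highest at 647 CPM, followed by the small subunit Uqcr10 at 145 CPM and the core protein Uqcrc2 at 116 CPM. Cyc1, the cytochrome c1 haem protein, was lowest at 30.0 CPM.

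In complex IV, cytochrome c oxidase, the most counted genes were Cox6c at 525 CPM, Cox7a2l at 363 CPM and Cox6a1 at 134 CPM. Cox7a2l, also called Scaf1, encodes a factor that joins complexes III and IV into supercomplexes. Several subunits of this complex have a widely expressed form and a form of muscle, lung or testis. The widely expressed forms Cox4i1, Cox6a1, Cox6b1, Cox7a2 and Cox7b and the liver form Cox8a were counted in all libraries. Of the other forms Cox4i2 and Cox7a1 had 5 and 29 counts in all, Ndufa4l2, a relative of Ndufa4, had 2, and Cox7b2, Cox8b and Cox8c had 0 counts in every library, which allows up to 0.0725 CPM over the summed libraries. Cox6a2, the heart and muscle form, had 131 of its 146 counts in old control 1. Cox6b2, the testis form, was an exception, averaging 22.5 CPM with counts in all 12 libraries. Cox5a and Cox5b, core nuclear-encoded subunits in every tissue, averaged only 8.07 and 5.98 CPM.

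In complex V, the F1 head subunit Atp5a1 had the highest level of any tested member, 982 CPM. Atp5g3, which encodes the c subunit of the rotating ring, followed at 724 CPM, and Atp5o, which links head and stalk, at 524 CPM. The other genes for the identical mature c subunit were much lower, with 24.2 CPM for Atp5g1 and 30 counts in all for Atp5g2. Atp5l, a membrane subunit, had 47 counts in all. Both Atp5g2 and Atp5l are among the genes with shared 3′ ends.

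**Figure D1:**
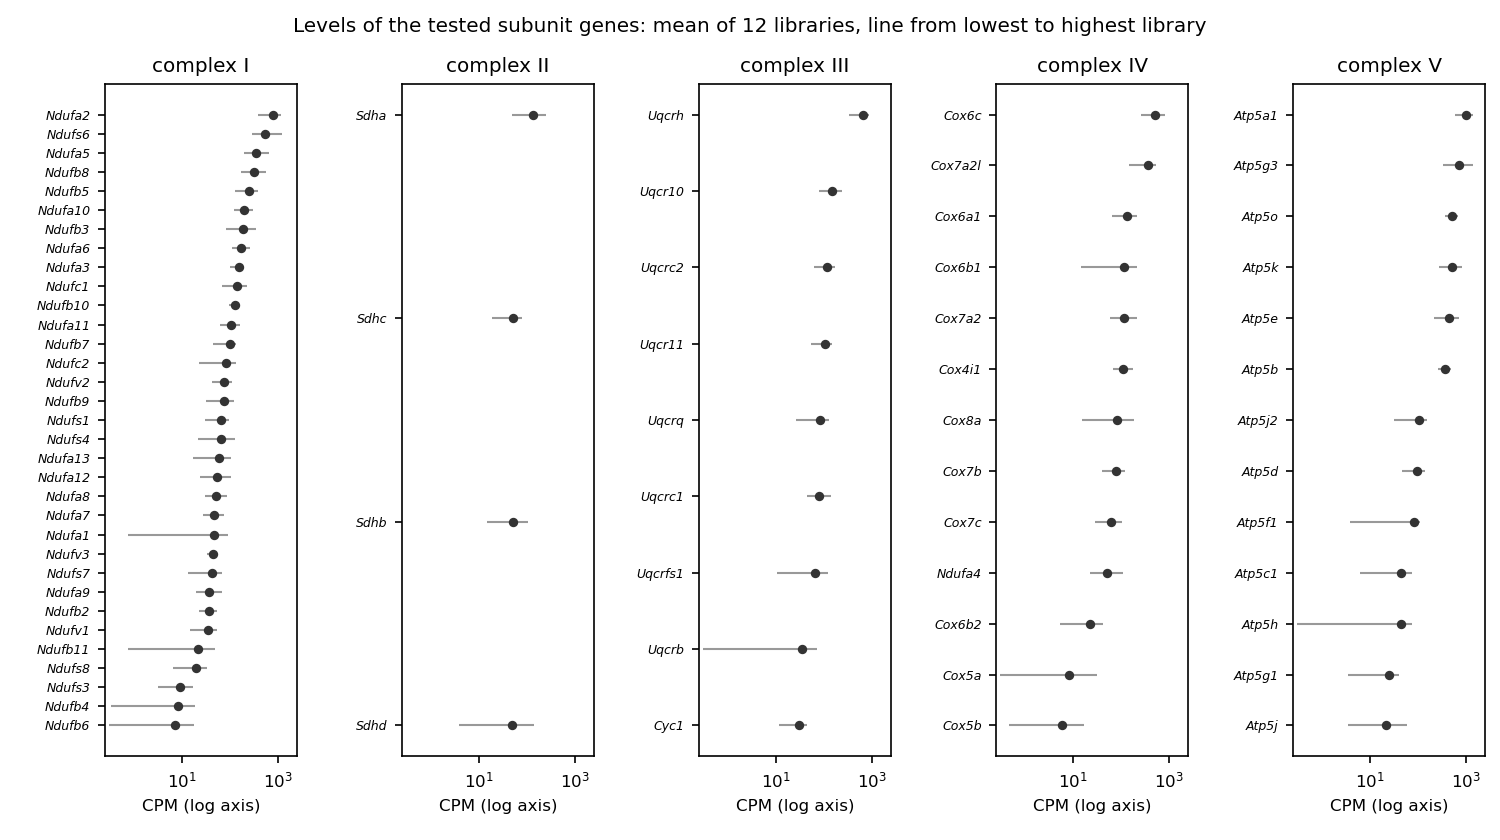
Mean CPM over 12 libraries (points, log axis) of the tested subunit genes, by complex and with 1 complex I gene not drawn, with a line from the lowest to the highest library (lines are drawn from 0.3 CPM where the lowest library is under it). Each complex holds genes that differ by an order of magnitude or more except complex II, whose 4 genes averaged 49.1 to 133 CPM.

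Promoters are shown for 6 members, since these genes are regulated in the nucleus and binding sites of NRF1, GABPA and YY1 are known for respiratory genes in mammals. Sdha and Cox7a2l are the members that passed the test in a comparison below, Ndufc1 had the smallest p-value between the young groups, and the other 3 hold a motif. The sequences are from RefSeq on GRCm38.p6, 5′ to 3′ on the gene's strand, with 120 bases before and 30 after the annotated start. Capitals mark exact matches, on either strand, to GCGCATGC (NRF1), CCGGAAG (GABPA) or AAGATGGC (YY1). GCGCATGC can match on both strands of GCGCATGCGC and then overlaps itself.
Sdha, chr13:74350211-74350360, minus strand: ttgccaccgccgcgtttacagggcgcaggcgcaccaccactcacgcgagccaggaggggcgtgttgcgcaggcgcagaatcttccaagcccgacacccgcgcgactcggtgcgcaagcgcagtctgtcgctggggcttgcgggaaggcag
Cox7a2l, chr17:83514304-83514453, minus strand: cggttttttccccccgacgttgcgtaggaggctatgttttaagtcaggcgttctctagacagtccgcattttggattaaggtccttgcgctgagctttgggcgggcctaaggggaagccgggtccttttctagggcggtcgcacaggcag
Ndufc1, chr3:51408926-51409075, minus strand: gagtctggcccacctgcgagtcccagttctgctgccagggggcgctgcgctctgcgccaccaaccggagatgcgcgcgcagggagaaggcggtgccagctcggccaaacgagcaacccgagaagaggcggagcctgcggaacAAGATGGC
Sdhb, chr4:140961151-140961300, plus strand: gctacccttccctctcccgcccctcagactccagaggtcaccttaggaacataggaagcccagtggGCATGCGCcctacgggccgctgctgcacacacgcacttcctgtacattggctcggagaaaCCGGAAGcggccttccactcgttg
Uqcrh, chr4:116075041-116075190, minus strand: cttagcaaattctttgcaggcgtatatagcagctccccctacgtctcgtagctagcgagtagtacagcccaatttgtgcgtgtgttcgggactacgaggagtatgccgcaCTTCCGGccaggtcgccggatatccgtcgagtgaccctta
Atp5k, chr5:108434370-108434519, minus strand: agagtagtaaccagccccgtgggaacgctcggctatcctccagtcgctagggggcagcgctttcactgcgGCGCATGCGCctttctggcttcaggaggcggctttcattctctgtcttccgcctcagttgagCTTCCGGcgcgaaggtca

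All 87 members matched a RefSeq gene, 5 of them by a synonym, and 69 had a promoter window of 250 bases before to 50 after the start, in 75 windows. NRF1 letters were found in 13.3% of the members' windows, against 2.71% of all 32851 windows. GABPA letters were found in 21.3% of the members' windows, against 8.86% of all windows. YY1 letters were found in 16.0% of the members' windows, against 2.75% of all windows. Of the 12 windows that held them 7 belonged to complex I, which has 33 of the 75 windows. In 9 of the 12 windows a match to the YY1 letters began after the annotated start. Whether these letters are binding sites was not tested. Of the 69 members, 31 held at least 1 of the 3 motifs, and the matching share of all windows was not computed. Sdha and Cox7a2l held none, which says only that these letters are not in their windows.

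The summed level of the 87 members stayed within 1.46-fold across the 12 libraries, from 9845 CPM in old het 3 to 14370 CPM in old control 3. It averaged 11190 ± 1980 CPM in old hets, 12600 ± 1704 in old controls, 12540 ± 1301 in young hets and 11010 ± 803 in young controls (SD, n = 3 each here and below). The highest and the lowest group mean were closer than the largest SD within a group.

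The complexes did not all follow the same order of groups. Complex I summed to 4135 ± 503 CPM in old hets, 4296 ± 682 in old controls, 4881 ± 621 in young hets and 4445 ± 557 in young controls, with all groups overlapping. Summed by itself, its membrane arm had 1845 to 2467 CPM in old controls and 1509 to 1725 CPM in young controls, without overlap. The sum of the NADH-oxidising arm went the other way by a narrow gap, with 1216 to 1816 CPM in old controls and 1827 to 2771 CPM in young controls. Ndufa2 and Ndufs6 made up most of that sum. They averaged 576 and 373 CPM in old controls, against 913 and 746 CPM in young controls. Of the other genes of this arm, Ndufa6 and Ndufv3 had lower means in old controls. Ndufs1, Ndufs4, Ndufa7, Ndufa12, Ndufv1 and Ndufv2 had higher means there, so that its genes did not move together. Complex V summed to 3712 ± 642 CPM in old hets, 4336 ± 915 in old controls, 4260 ± 140 in young hets and 3594 ± 431 in young controls. Here every young het (4107 to 4381 CPM) lay above every young control (3136 to 3991 CPM). Complex IV, with Cox7a2l included, summed to 1525 ± 390, 1905 ± 223, 1734 ± 374 and 1552 ± 268 CPM in the same 4 groups. Without Cox7a2l and the tissue forms, its widely expressed subunits summed to 1459 to 1821 CPM in old controls and 747 to 1264 CPM in young controls, without overlap. Complex III was the complex whose whole sum put every old control (1376 to 1777 CPM) above every young control (951 to 1074 CPM). Its old hets lay at 1118 to 1781 CPM and its young hets at 1041 to 1647 CPM. Complex II varied most, 3.61-fold between libraries, at 293 ± 61.4 CPM in old hets, 386 ± 52.6 in old controls, 184 ± 43.6 in young hets and 285 ± 142 in young controls. Its lowest library, at 122 CPM, was young control 3.

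**Figure D2:**
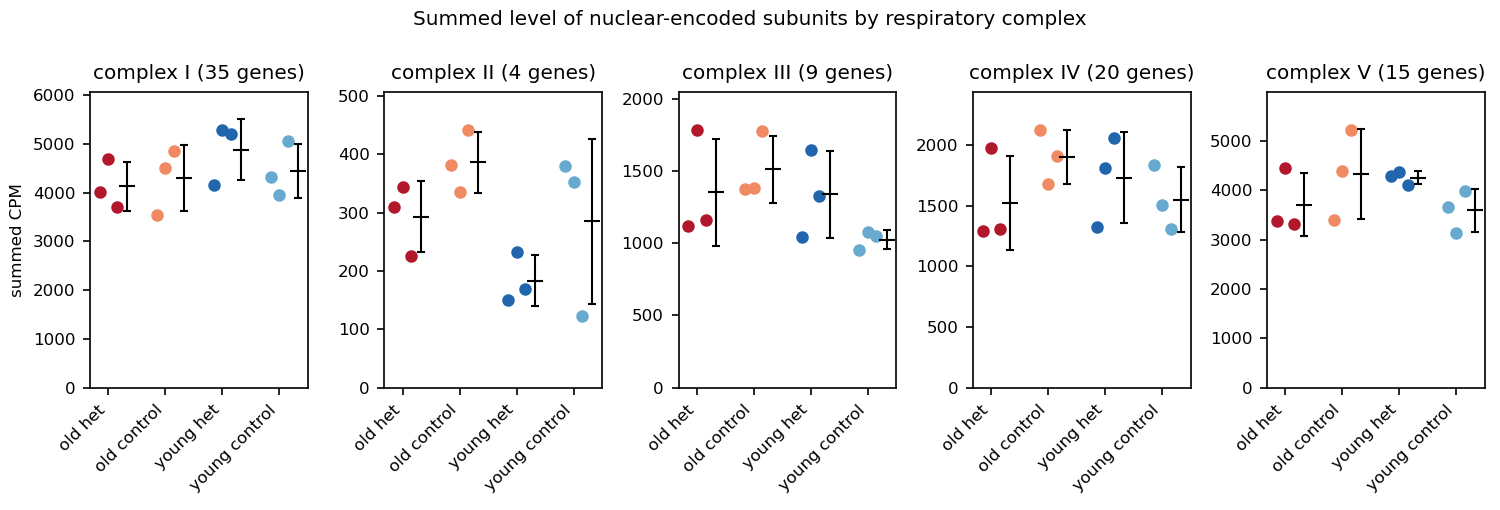
Summed CPM of the members of each complex by library (points), with mean and SD of 3 libraries per group in black. Groups overlap in most panels, while the 3 old controls lie above the 3 young controls for complex III and the 3 young hets above the 3 young controls for complex V.

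Between young hets and young controls, no member of the 77 tested passed an adjusted p of 0.05 in edgeR's quasi-likelihood test, where 45 of 10604 genes, or 0.424%, did. At an unadjusted p under 0.05 there were 3 higher and 2 lower members in young hets, against 14.0% of all genes, while DESeq2 called 1 member and limma-voom 0. The groups did not overlap for 9 members that were higher and 2 that were lower in young hets, against 9.72% and 7.12% of all genes. The members' median log2 change was 0.14, beside 0.08 for all genes, with 46 positive and 31 negative. By complex the median was 0.25 for I, -0.63 for II, 0.14 for III, -0.37 for IV and 0.36 for V. Within complex I, 15 of 18 tested subunits of the membrane arm had a positive change, against 5 of 10 of the NADH-oxidising arm and 2 of 6 of the quinone-binding part.

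The smallest p-value belonged to Ndufc1, a small accessory subunit of the membrane arm. It had 167, 227 and 216 CPM in young hets, against 90.3, 68.0 and 104 CPM in young controls, so that every young het lay above every young control. The log2 change was 1.21 (SE 0.31) with an adjusted p of 0.0816 by edgeR. Old hets had 147 to 169 CPM and old controls 110 to 146 CPM. DESeq2 called this gene with an adjusted p of 0.0115. Over the other alternatives and the left-out libraries its adjusted p by edgeR or limma-voom lay between 0.0393, without old control 1 and young control 3, and 0.541, with the share of mitochondrial rRNA as a covariate.

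Cox6c, a small subunit of complex IV, had 488, 621 and 816 CPM in young hets, against 432, 258 and 349 CPM in young controls. These groups did not overlap either, with a log2 change of 0.89 (SE 0.33, edgeR adjusted p = 0.222). Cox6c shared 34.9% of its 3′ stretches with Cox6c2. Ndufs1 had 55.1, 90.2 and 96.7 CPM in young hets, against 50.1, 45.9 and 30.6 CPM in young controls, a log2 change of 0.94 (SE 0.38, edgeR adjusted p = 0.256). In Ndufb3, a membrane-arm subunit, young control 3 stood with the hets: young hets had 222, 357 and 269 CPM, against 97.2, 104 and 261 CPM in young controls. Without old control 1 and young control 3, Ndufb3 passed the edgeR test, with a log2 change of 1.50 and an adjusted p of 0.0384. That fit drops the young control that stood with the hets. The young controls it keeps are numbered apart from the hets in the sample titles, so that genotype and numbering cannot be told apart in it.

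Members with a negative change included Uqcrq, the ubiquinone-binding protein of complex III, and Sdhd. Uqcrq had 26.2, 59.8 and 54.5 CPM in young hets, against 75.2, 131 and 64.2 CPM in young controls, with no overlap and a log2 change of -0.92 (SE 0.40, edgeR adjusted p = 0.294). Sdhd had 16.1, 44.3 and 23.0 CPM in young hets, against 142, 121 and 31.3 CPM in young controls, a log2 change of -1.80 (SE 0.83, edgeR adjusted p = 0.330). Young control 3 overlapped the hets. With no filter on low counts Sdhd was called, at -1.76 with an edgeR adjusted p of 0.0288.

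Between old hets and old controls, no member passed in edgeR, DESeq2 or limma-voom, and none of the 10604 genes did in edgeR, which is 0%. At an unadjusted p under 0.05 there were 0 higher and 3 lower members in old hets, against 3.58% of all genes. The groups did not overlap for 4 members that were higher and 8 that were lower in old hets, against 5.15% and 5.99% of all genes. The members' median log2 change was -0.30, beside -0.05 for all genes, with 21 positive and 56 negative. The median was negative in each complex, from -0.47 in IV and -0.41 in II to -0.31 in III, -0.26 in I and -0.19 in V. The size of this median turned on single libraries: it was -0.60 without old het 2, -0.12 without old het 1, -0.06 without old het 3 and -0.14 without old control 3. It was -0.26 with old control 1 and young control 3 left out, and -0.10 with the share of mitochondrial rRNA as a covariate.

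The 3 members with an unadjusted p under 0.05 were Atp5g3, Ndufa1 and Uqcrc2. Atp5g3 had 337, 997 and 354 CPM in old hets, against 906, 1044 and 1417 CPM in old controls. Old hets 1 and 3 were low and old het 2 lay among the controls, and the log2 change was -0.99 (SE 0.37, edgeR adjusted p = 0.999). Uqcrc2 showed the same order, with 63.1, 143 and 65.7 CPM in old hets, against 166, 135 and 168 CPM in old controls. So did Cox8a, with 15.4, 131 and 17.1 CPM in old hets, against 188, 111 and 113 CPM in old controls. Summed mitochondrial rRNA in the same libraries was 36640 ± 20530 CPM in old hets, with 12940 CPM in old het 2, and 18880 ± 3628 CPM in old controls, and its part in these values was not tested.

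Ndufa1, a small membrane-anchored subunit needed for complex I assembly, separated the old groups. It had 40.4, 32.5 and 3.94 CPM in old hets, against 84.5, 93.4 and 84.9 CPM in old controls. The log2 change was -1.77 (SE 0.76, edgeR adjusted p = 0.999). Ndufc2, another membrane-arm subunit, had 38.8, 89.4 and 42.7 CPM in old hets, against 123, 94.8 and 137 CPM in old controls, again without overlap, at -1.04 (SE 0.50, edgeR adjusted p = 0.999).

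The comparison with the most calls was old against young controls, and 2 members passed: Sdha was higher and Cox7a2l lower in old controls. Of all 10604 genes, 740, or 6.98%, passed in edgeR. At an unadjusted p under 0.05 there were 12 higher and 5 lower members in old controls, against 23.1% of all genes. The groups did not overlap for 23 members that were higher and 5 that were lower in old controls, against 19.0% and 12.2% of all genes. The members' median log2 change was 0.45, beside 0.22 for all genes, with 58 positive and 19 negative. The median was 0.60 for complex III, where 9 of 9 genes were positive, 0.56 for IV, 0.41 for I, 0.41 for V and 0.38 for II.

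Scaling moved the whole distribution in this comparison. With upper quartile scaling the median was 0.38 for the members and 0.15 for all genes, and with library totals alone it was 0.78 for the members and 0.52 for all genes, so that changes are best read relative to the median of all genes. Of the 740 called genes 40.0% were higher in old controls, against 69.2% of 1006 with library totals alone. By another test, limma-voom, 16.6% of 517 called genes were higher in old controls. When the share of mitochondrial rRNA entered the fit as a covariate, 0 genes passed and the median was 0.04 for the members and 0.11 for all genes. That share was 4.35 to 8.22% of counts in young controls and 1.70 to 2.38% in old controls, so that it cannot be told apart from the group. When old control 1 and young control 3 were left out, 463 genes and 0 members passed in edgeR, and the members' median was 0.40.

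Sdha rose in old controls. It had 202, 164 and 247 CPM in old controls, against 82.8, 95.2 and 48.1 CPM in young controls, and the lowest old control was well above the highest young control. The log2 change was 1.45 (SE 0.34, edgeR adjusted p = 0.0139), a 2.73-fold difference. Without old control 3 the change was 1.31 with an adjusted p of 0.0638, and without old control 1 it was 1.46 with 0.0413. Without old control 1 and young control 3 together it was 1.22 with an adjusted p of 0.0685, and with the mitochondrial covariate 1.59 with 0.336. The same order appeared between the het groups, with 163, 190 and 150 CPM in old hets, against 72.9, 107 and 76.5 CPM in young hets, so that all 6 old libraries lay above all 6 young ones. In that comparison the log2 change was 0.97 (SE 0.33) and did not pass, with an edgeR adjusted p of 0.675.

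The other subunits of complex II did not pass. Sdhc had 69.5, 78.7 and 71.2 CPM in old controls, against 51.6, 66.3 and 19.1 CPM in young controls, a log2 change of 0.70 (SE 0.44, edgeR adjusted p = 0.354). Sdhb had 107, 41.3 and 56.6 CPM in old controls, against 104, 69.7 and 23.7 CPM in young controls, at 0.06 (SE 0.60). Sdhd had 3.94, 51.9 and 66.3 CPM in old controls, against 142, 121 and 31.3 CPM in young controls, at -1.28 (SE 0.82, edgeR adjusted p = 0.369). Sdhd spread over an order of magnitude within the old controls, and the differences between these subunits' changes were not tested.

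Cox7a2l fell in old controls. It had 260, 201 and 183 CPM in old controls, against 547, 510 and 519 CPM in young controls. The log2 change was -1.29 (SE 0.37, edgeR adjusted p = 0.0398). The young controls were closely grouped, at 525 ± 19.6 CPM, and the old controls averaged 215 ± 40.4 CPM. Leaving out any 1 library of either group but young control 3 raised the adjusted p to between 0.0636 and 0.139. It was 0.0464 without young control 3, 0.0721 without old control 1 and young control 3, 0.0853 with library totals alone and 0.691, at -0.72, with the mitochondrial covariate. Het libraries were more spread, with 430, 148 and 378 CPM in old hets and 255, 415 and 504 CPM in young hets. The related Cox7a2, a structural subunit of complex IV, had 121, 139 and 179 CPM in old controls, against 93.4, 78.2 and 59.6 CPM in young controls, the opposite order.

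Ndufb8 and Ndufa12 came next. Ndufb8, a membrane-arm subunit whose protein is often used as a marker of assembled complex I, had 342, 494 and 498 CPM in old controls, against 212, 170 and 209 CPM in young controls, at 1.17 (SE 0.36, edgeR adjusted p = 0.0515). Ndufa12, an accessory subunit of the NADH-oxidising arm, had 67.1, 68.4 and 78.7 CPM in old controls, against 31.1, 23.8 and 26.8 CPM in young controls, at 1.38 (SE 0.42, edgeR adjusted p = 0.0515). In both genes the groups were far apart. DESeq2 called 7 members here, namely Sdha, Ndufb8 and Ndufa12 as higher and Cox7a2l, Ndufa5, Ndufs6 and Atp5l2 as lower in old controls.

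The 3 most counted genes of complex I had negative changes, beside the positive median of the complex. Ndufa5 had 203, 279 and 308 CPM in old controls, against 653, 428 and 397 CPM in young controls, at -0.91 (SE 0.30, edgeR adjusted p = 0.0757). Ndufa2 had 386, 657 and 684 CPM in old controls, against 986, 778 and 974 CPM in young controls, at -0.67 (SE 0.32, edgeR adjusted p = 0.215). Neither pair of groups overlapped. Ndufs6 had 286, 399 and 432 CPM in old controls, against 431, 554 and 1253 CPM in young controls, at -1.0 (SE 0.36, edgeR adjusted p = 0.0953), and here young control 3 was far above the rest. Among members that are not subunits, Cox4nb, now named Emc8 and part of a membrane insertion complex of the endoplasmic reticulum, changed by 1.22 (SE 0.41, edgeR adjusted p = 0.0778).

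**Figure D3:**
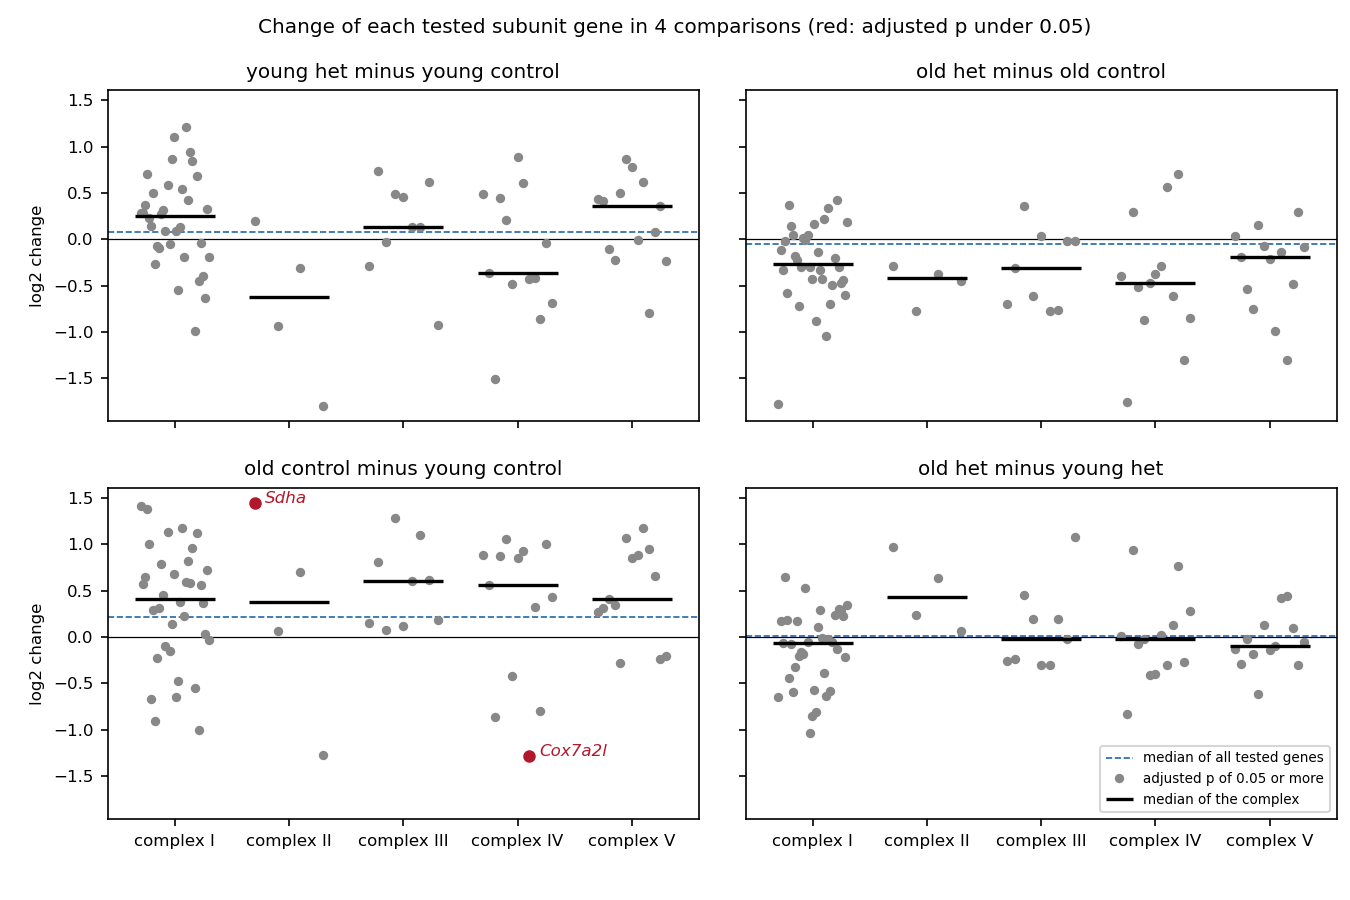
Log2 change of each tested subunit gene (points) by complex in 4 comparisons, with the median of the complex as a black bar and the median of all 10604 tested genes as a dashed line; red marks an adjusted p under 0.05 in edgeR. Sdha at 1.45 and Cox7a2l at -1.29, in old minus young controls, are the red points.

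Between old and young hets, no member passed in edgeR, DESeq2 or limma-voom, and 1 gene of 10604, or 0.00943%, passed in edgeR. At an unadjusted p under 0.05 there were 2 higher (Sdha and Uqcrq) and 1 lower (Ndufb3) members in old hets, against 6.28% of all genes. The groups did not overlap for 2 members that were higher and 3 that were lower in old hets, against 7.08% and 6.95% of all genes. The members' median log2 change was -0.06, beside 0.01 for all genes. Uqcrq had 108, 113 and 78.1 CPM in old hets, against 26.2, 59.8 and 54.5 CPM in young hets, at 1.08 (SE 0.39, edgeR adjusted p = 0.690). Ndufb3 had 184, 98.2 and 134 CPM in old hets, against 222, 357 and 269 CPM in young hets, at -1.03 (SE 0.42, edgeR adjusted p = 0.723).

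The het effect in old minus the het effect in young passed for no member in edgeR, DESeq2 or limma-voom, and for 9 genes, or 0.0849%, in edgeR. At an unadjusted p under 0.05 there were 1 higher and 3 lower members, against 12.8% of all genes. The median over members was -0.48, beside -0.18 for all genes, with 18 positive and 59 negative. Cox6c changed by -0.37 (SE 0.33) in old hets against old controls and by 0.89 (SE 0.33) in young hets against young controls, a difference of -1.26 (SE 0.46, edgeR adjusted p = 0.242). Cox7c, another small subunit of complex IV, gave 0.71 (SE 0.41) between the old groups and -0.86 (SE 0.42) between the young groups, which differ by 1.57 (SE 0.59, edgeR adjusted p = 0.254). Without old het 2, Atp5g3 and Cox8a passed in edgeR. The comparisons above share groups, so that their values are not independent of each other.

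**Figure D4:**
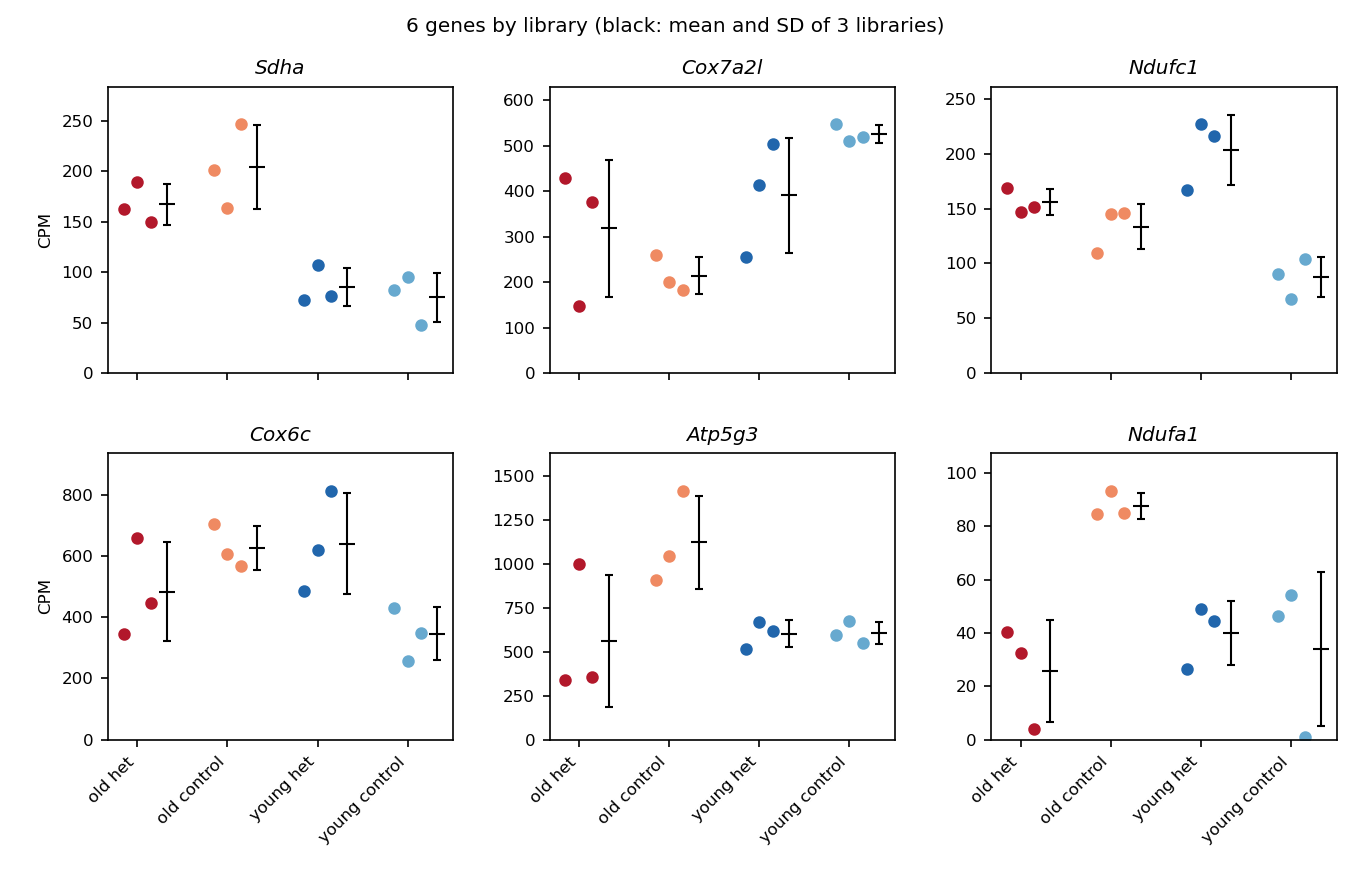
CPM by library (points) for 6 members, with mean and SD of 3 libraries per group in black. Sdha is higher in all 6 old than in all 6 young libraries, Cox7a2l is highest in young controls (510 to 547 CPM), and old hets 1 and 3 lie apart from old het 2 for Atp5g3.

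The summed subunits encoded by the mitochondrial genome varied far more between libraries than the summed nuclear members. Some single nuclear members ranged widely too, such as Sdhd from 3.94 to 142 CPM. The mitochondrial sum ranged 13.2-fold between libraries, from 4884 CPM in old het 2 to 64220 CPM in young control 1. This sum does not cover the whole set. mt-Nd4l, mt-Co2, mt-Atp6 and mt-Atp8 had 0 counts in every library, and mt-Co3 had 6 counts in all. The sum therefore holds no complex V subunit and, of complex IV, almost only mt-Co1. The summed level averaged 12640 ± 7507 CPM in old hets, 8597 ± 1302 in old controls, 16340 ± 6443 in young hets and 52510 ± 17750 in young controls. Every young control, at 32080 CPM or more, lay above every other library.

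Of the 13 mitochondrially encoded subunits 8 were tested, and 7 of them fell in old controls against young controls, with a median log2 change of -2.59. mt-Nd4, a proton-pumping subunit of complex I, had 1921, 2464 and 2155 CPM in old controls, against 24690, 18280 and 10660 CPM in young controls, at -3.04 (SE 0.48, edgeR adjusted p = 0.00117). mt-Co1, the catalytic subunit of complex IV, had 304, 475 and 369 CPM in old controls, against 1782, 2356 and 913 CPM in young controls, at -2.14 (SE 0.42, edgeR adjusted p = 0.00501). Both mitochondrial rRNAs fell as well, at -1.49 and -1.94. In young hets against young controls the 8 subunits had a median of -1.72, and none passed in edgeR, though 7 had an unadjusted p under 0.05 and DESeq2 called 6 and limma-voom 0. Here mt-Nd4 had 2488, 6524 and 6684 CPM in young hets, at -1.77 (SE 0.46, edgeR adjusted p = 0.0861). In old hets against old controls the median was 0.54.

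**Figure D5:**
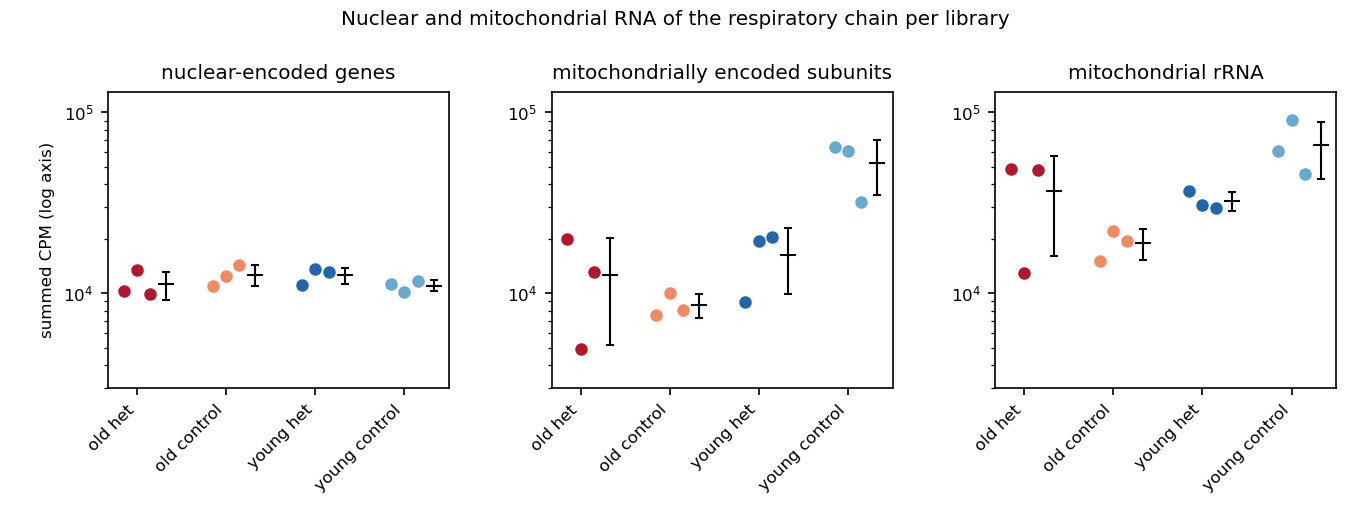
Summed CPM per library (points, log axis) of the 87 nuclear-encoded members, of the mitochondrially encoded subunits (4 of the 13 had 0 counts in every library) and of mitochondrial rRNA, with mean and SD of 3 libraries in black. The nuclear sums stay between 9845 and 14370 CPM, while the mitochondrial subunits range from 4884 to 64220 CPM, with young controls highest.

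Genes that assemble, feed or regulate the chain were read from lists, beside 6.98% of all genes called in old against young controls and 0.424% in young hets against young controls, and 23.1% and 14.0% of all genes at an unadjusted p under 0.05. Of 27 tested assembly factors none passed in old against young controls or in young hets against young controls by edgeR, with 4 and 1 at an unadjusted p under 0.05. DESeq2 called 1 (Taco1) and 0, limma-voom called 0 in both, and the medians were 0.44 and 0.08. Of 13 citric acid cycle genes none passed in these comparisons either, with 2 and 0 at an unadjusted p under 0.05, while DESeq2 called 1 (Suclg2) and 0 and limma-voom 0 in both. Of 13 carriers and exchange genes 2 passed in old against young controls in edgeR and DESeq2, while limma-voom called Etfdh alone. Slc25a4, the ADP and ATP exchanger of heart and muscle type, had 161, 131 and 157 CPM in old controls, against 66.1, 69.7 and 55.8 CPM in young controls, at 1.23 (SE 0.34, edgeR adjusted p = 0.0357). Etfdh, which passes electrons from fat oxidation to ubiquinone, had 17.7, 24.1 and 25.2 CPM in old controls, against 90.3, 56.1 and 54.3 CPM in young controls, at -1.59 (SE 0.48, edgeR adjusted p = 0.0473). Of 12 regulators 1 passed in all 3 tools in old against young controls, Pprc1, a coactivator related to PGC-1. It had 29.9, 44.6 and 73.4 CPM in old controls, against 427, 243 and 181 CPM in young controls, at -2.54 (SE 0.44, edgeR adjusted p = 0.00220). In young hets against young controls DESeq2 called the regulator Gabpb2. It had 112, 108 and 95.3 CPM in young hets, against 150, 206 and 208 CPM in young controls. Neither edgeR nor limma-voom called a regulator there, and no tool called a carrier.

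Cell type markers moved in the same comparison. In old against young controls Gfi1, Irf8 and Prtn3 of 10 granulocyte and monocyte markers rose in edgeR and DESeq2. DESeq2 also called Elane as higher, and limma-voom called Irf8 and Prtn3. Of these 10 markers 3 had a negative change, 1 of them at an unadjusted p under 0.05. Of 5 stem cell markers Hlf and Meis1 were called higher in edgeR, and neither DESeq2, which gave 3 of them no adjusted p, nor limma-voom called any. Hlf had 270, 31.8 and 34.5 CPM in old controls, against 10.6, 13.6 and 9.94 CPM in young controls. Meis1 had 388, 44.3 and 37.1 CPM in old controls, against 28.9, 34.0 and 42.0 CPM in young controls, so that both were highest in old control 1. Prss34, 1 of 6 basophil and mast cell markers, rose in edgeR and DESeq2 but was not called by limma-voom, and it had 1, 0 and 7 counts in young controls. DESeq2 also called Hdc, a histamine-forming enzyme of basophils and mast cells, as higher. Mcpt8 of the same list had a lower mean CPM in old than in young controls. Of 7 megakaryocyte markers none passed in edgeR or limma-voom, 5 were higher at an unadjusted p under 0.05 with a list median of 1.64, and DESeq2 called 2. Itgam, which encodes CD11b and is usually low in this gate, fell, with 51.4, 113 and 42.0 CPM in old controls, against 1247, 736 and 247 CPM in young controls. Nkg7, the other tested marker that should be low in this gate, went the other way. It had 106, 147 and 78.3 CPM in old controls, against 32.65, 11.9 and 37.45 CPM in young controls, and only DESeq2 called it. In young hets against young controls Gfi1 and Hdc rose in edgeR, and limma-voom called Hdc alone of these. DESeq2 called both, and also Prtn3 and Prss34. Within these lists Ctsg, Csf1r, Cpa3 and Ms4a2 had a lower mean CPM in young hets than in young controls. Of 13 tested erythroid markers 12 had a negative change in old against young controls and none passed in edgeR, with 4 at an unadjusted p under 0.05, while DESeq2 called 2 and limma-voom 3. The part of these shifts in the values of Sdha, Cox7a2l and the other members was not tested.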

How the data were processed

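Read counts per gene symbol, not normalized, were used as deposited by the authors. The tools STAR 2.4, HTSeq 0.6.1 and DESeq2 and the build mm9 are listed without a role, per the submitters' processing notes. No source used here gives the strand setting, the annotation or any molecular identifiers, so antisense and overlapping genes cannot be told apart. Libraries were numbered 1 to 3 within a group in accession order, which pairs none. Each replicate pair differed by more than sampling noise (chi-square divided by its degrees of freedom was 5.22 or more).

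Counts were tested with edgeR 4.0.16 (R 4.3.3): TMM scaling, filterByExpr with a minimum count of 10 and total of 15, 4 groups in 1 quasi-likelihood fit, and Benjamini-Hochberg adjustment over 10604 genes at 0.05. SEs are the change divided by the square root of F. The steps were tested on simulated counts. Floors cover counting error only. Named genes were members past the threshold, the 5 smallest p-values per direction and comparison, the 3 highest per complex, isoform sets and complex II; Cox5a, Cox5b, Cyc1 and Ndufv1 values and the sequences shown were chosen after values were seen. Atp5l2 was moved out of complex V because RefSeq names it a pseudogene. Ndufa4 was counted in complex IV. The values of 1 complex I gene are not reported here. The members and lists were chosen with earlier results of these data known. Alternatives were DESeq2 1.42.0, limma-voom 3.58.1, other scalings and filters, the compared groups alone, a covariate for the share of mitochondrial rRNA, and left-out libraries. RefSeq and GENCODE tables on GRCm38 were used for names, promoters and 3′ ends only.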

Additional observations from a re-analysis of the deposited data

How the results depend on the processing

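In the shallowest library, young control 2, 3 counts stand for 5.10 CPM, which limits what can be read of members near that level. Calls by DESeq2 rose to 355 genes and 1 member (young hets against young controls), 1295 and 7 (old against young controls), 15 genes (old against young hets) and 296 (difference of het effects). limma-voom gave 23 genes for young hets against young controls and 2 for the difference. Library totals alone gave 6 members in old against young controls (Sdha, Ndufb8, Ndufa12, Cox6c, Cox4i1 and Cox4nb), and a complex III level of 922 CPM in young controls. Without mitochondrial and small RNA genes 8 genes (young hets) and 3 (difference) passed, and scaling to totals without them put complex IV at 2164 CPM in old controls. With no filter 258 genes and 1 member passed in young hets, 11 in old hets against old controls, 22 in old against young hets and 216 in the difference. With the compared groups alone these were 13 for young hets and 2 for old against young hets. With the mitochondrial rRNA covariate 1 gene passed in young hets, 0 genes and 0 members in old against young controls (members' median 0.041), 2 in old against young hets and 0 in the difference (members' median -0.078). Without old control 1 and young control 3 the counts were 241 genes and 2 members, 463 and 0, 8 genes, and 59 for the difference. The difference of het effects in Sdhd turned to -1.24 with the covariate and, with 1 library left out, ran from -0.23 (without old het 1) to 1.88. Leaving out 1 library gave 1 to 157 genes, 0 members and a median of 0.05 to 0.25 for young hets against young controls. It gave 0 to 1, 0 and -0.60 to -0.06 for old hets against old controls. For old against young controls it gave 315 to 777, 0 to 3 and 0.35 to 0.53. For old against young hets it gave 0 to 5, 0 and -0.37 to 0.03, and for the difference 2 to 294, 0 to 3 and -0.83 to -0.33. The causes were not tested. No paired analysis was possible because the labels' numbers do not pair libraries across groups.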

Other observations

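Usmg5 and 2010107E04Rik, which current nomenclature counts as ATP synthase subunits (Atp5md and Atp5mpl) but whose older symbols fall outside the rule for members, were counted in all 12 libraries, with 1225 and 6916 counts in total.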
